A study of Mus musculus with 38 samples.

Results

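The change in LAP2B binding between naive pluripotency and the primed state was examined in mouse cells without the lamin B receptor (LBR). The members are the 6 LAP2B libraries of LBRKO cells, 3 from naive embryonic stem cells (mESCs) and 3 from epiblast-like cells (EpiLCs), out of 36 libraries in the gene and transposable element (TE) tables and 38 samples in the series. They were chosen by their labels for antibody, genotype and stage. No measured value entered that rule, though earlier results of these data were known. The 6 WT LAP2B libraries, 3 from each stage, were treated in the same way and serve for comparison. The limma tests took their spread from all 24 LAP2B libraries. These include cells of both stages without lamins (TKO) and without lamins and LBR (QKO), which are not described here. Naive LBRKO and WT cells were grown without serum or feeders in medium with LIF and inhibitors of GSK3 and MEK. EpiLCs were made from them with FGF at 20 ng/mL and activin A at 12 ng/mL, and both were collected at 48 h, with 200000 cells per replicate. The LBRKO lines carry frameshift indels in Lbr and were made from the WT line, with all lamin genes intact. The study made several LBRKO clones, the labels do not say which was used, and the WT line was reported to hold a subpopulation with extra copies of chromosomes 6 and 8 and loss of Y.

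LAP2B is an isoform of the Tmpo product that spans the inner nuclear membrane and binds lamin B. In CUT&RUN an antibody brings a nuclease to its target, and the DNA released nearby is sequenced, so a value here is an amount of DNA near LAP2B and not expression. LBR is another protein of the inner nuclear membrane. Its amino-terminal part binds lamin B and heterochromatin, and its membrane part is a sterol reductase of cholesterol synthesis. The lamins and LBR are known as alternative tethers that hold silent chromatin marked by H3K9me2 at the nuclear edge. Regions in contact with the lamina are typically rich in A and T, poor in active genes, and hold many clustered families such as olfactory receptors. The labelled cell type cannot be checked against marker genes in these tables, because marker coverage is not expression. Values are described as LAP2B coverage alone, because the study did not read LAP2B as a proxy of the lamina once cells had left the naive state.

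The guide target that made the LBRKO lines lies in coding exon 2 of Lbr, at chr1:181666037-181666059 of GRCm39, on the plus strand while Lbr is on the minus strand. It is shown because it defines the genotype of all 6 libraries. Lower case letters are the 20 bases of the target and capitals mark the 3 bases of the PAM.
Lbr exon 2 target: tcataataaagggagctcccAGG
The tables give coverage summed over 1 kb bins and not bases, so they do not test the genotype. Relative values, in which each library is divided by its median gene, were 7.61, 7.26 and 8.71 over Lbr in the 3 naive LBRKO libraries and 5.47, 6.99 and 6.20 in the 3 EpiLC libraries. Every EpiLC library lay below every naive one, but the log2 difference of -0.34 ± 0.14 (SE) missed the threshold (limma adjusted p = 0.079). Tmpo, which encodes LAP2B, had 19.7, 15.8 and 17.1 in naive cells and 13.0, 13.0 and 11.6 in EpiLCs, and fell by 0.48 on the log2 scale (adjusted p = 0.00245). Lmnb1, which encodes lamin B1, fell by 0.48 as well (adjusted p = 0.00194). Both also fell in WT, with -0.57 for Tmpo and -0.35 for Lmnb1 (adjusted p = 0.000195 and 0.0166). For neither were the stage changes of the genotypes called different (adjusted p = 0.753 and 0.616). Lmna, for the A-type lamins, and Lmnb2, for lamin B2, gave -0.05 and 0.37 with overlapping libraries (adjusted p = 0.915 and 0.137). Tm7sf2, which encodes the other sterol reductase of the same step as LBR, gave 0.45 in LBRKO (adjusted p = 0.164) and rose by 1.59 in WT. Its stage change was lower in LBRKO than in WT by 1.14 (adjusted p = 0.00737).

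The amount of LAP2B signal and its spread over the genome were compared first, with 1 value per library. Reads recovered over the gene table were 21908277 to 41198406 in the 6 LBRKO libraries, and no 2 replicates of a group were alike within counting error. The library level, the log2 of the mean deposited value over genes, was 3.54, 3.69 and 3.95 in naive LBRKO cells and 3.66, 3.66 and 3.77 in EpiLCs. The stages overlapped (difference -0.034, two-sided exact permutation p = 0.8). The lamina contrast, the log2 ratio of mean LAP2B per 1 kb bin between the genes with most WT LMNB1 and those with least (the outer of 4 classes of equal size), was 1.04, 0.691 and 0.858 in naive LBRKO cells and 0.756, 0.752 and 0.659 in EpiLCs. Here too the stages overlapped (difference -0.14, exact p = 0.3, adjusted p = 0.8 over 4 measures). Across genes, Spearman's rho of LBRKO LAP2B with WT LMNB1 was 0.208 to 0.356 in naive libraries and 0.288 to 0.335 in EpiLC libraries (exact p = 0.4), and rho with the IGG background was 0.405 to 0.565 and 0.495 to 0.555 (exact p = 0.9). In WT the contrast was 1.46 to 1.98 in naive cells and 0.671 to 1.04 in EpiLCs, without overlap (exact p = 0.1, the smallest that 3 against 3 allow). For the contrast, the EpiLC libraries of LBRKO lay inside or next to the range of the WT EpiLC libraries, while the naive ones lay below every naive WT library. For rho with LMNB1 both LBRKO stages lay below WT, which had 0.776 to 0.838 in naive cells and 0.441 to 0.659 in EpiLCs. The correlation with IGG was -0.061 to 0.102 in naive WT cells and 0.286 to 0.499 in WT EpiLCs, so the naive LBRKO libraries lay above every naive WT library and the EpiLC ranges overlapped. Whether the stage changes of these 4 measures differ between the genotypes was not tested. LBRKO naive replicates 1 and 2 stood at the 2 ends of the naive range for the contrast and both correlations.

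Single genes did move between the stages of LBRKO cells. On the relative scale, 5536 genes were higher and 7064 lower in EpiLCs (limma, Benjamini-Hochberg adjusted p under 0.05), which is 17.9% of 70382 genes tested, 7.87% higher and 10% lower. The balance turned to 6888 higher and 6061 lower when libraries were divided by their mean in place of their median gene. On the spike-in scale, that of the deposited values, 601 genes were higher and 845 lower, or 2.05%. This balance is not firm: without naive replicate 3 it turned to 391 higher and 141 lower, and when read numbers rather than RPKM were multiplied by the spike-in factor, to 2256 higher and 2008 lower. The 3 naive and 3 EpiLC libraries did not overlap for 35.2% of all genes tested, and for 95.2% of the genes called on the relative scale. In WT 32.1% of genes were called, and 12.1% on the spike-in scale (7321 higher and 1222 lower). The stage change differed between LBRKO and WT for 19.8% of genes, 7182 higher in LBRKO and 6720 lower, or 4768 and 9609 when libraries were divided by their mean. On the spike-in scale it differed for 0.629%, 66 higher in LBRKO and 377 lower. Division by the mean moved the median stage change of all genes from -0.06 to 0.09 in WT and from 0.02 to 0.05 in LBRKO. Nothing in the labels says that replicates came from separate cultures, so p-values measure the spread between libraries. On the spike-in scale limma took that spread from a trend over all genes. Its p-values there do not measure a single gene's own spread.

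The largest rise in LBRKO was over Lrrk2 (ENSMUSG00000036273, chr15:91557083-91700604), a kinase gene mutated in familial Parkinson disease. Its relative values were 16.2, 15.4 and 16.1 in naive libraries and 42.9, 41.0 and 39.7 in EpiLC libraries, a 2.58-fold rise (log2 1.37 ± 0.10, adjusted p = 3.72e-14). The naive libraries were tightly grouped and far below the EpiLC libraries. In WT, values of 28.5 to 34.3 and 31.8 to 41.4 overlapped (log2 0.21, adjusted p = 0.111), and the stage change was larger in LBRKO by 1.16 (adjusted p = 2.32e-07). Selenop (chr15:3298029-3313686), which encodes the plasma selenium carrier selenoprotein P, went from 0.596, 0.902 and 0.687 to 1.71, 2.28 and 2.07, also 2.58-fold (adjusted p = 2.46e-06). Sis (chr3:72795890-72875196), the gene of the gut enzyme sucrase-isomaltase, went from 7.97, 7.02 and 6.06 to 15.4, 15.3 and 14.9, a 2.16-fold rise (adjusted p = 5.8e-09). The naive LBRKO values of Lrrk2, Selenop and Sis all lay below the lowest WT value of either stage.

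The other large rises were over the odorant receptor gene Or52z13 (log2 1.35), Aadacl2fm3 of a family of lipid esterases (1.18), the histone chaperone gene Set (1.13), the cytochrome P450 gene Cyp2j12 (2.15-fold), and Trpc5os (1.13), whose coverage cannot be told apart by strand from that of Trpc5. All passed in LBRKO, with adjusted p between 6.94e-09 and 0.000201. Of the 8 largest rises, Set was the one that also rose in WT (1.35, adjusted p = 4.01e-09), from 2.11, 1.55 and 1.54 to 3.78, 4.87 and 4.98. The stage change of the other 7 was larger in LBRKO than in WT, by 1.02 to 1.44 (adjusted p at most 0.0107).

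The largest fall was over Bhmt2 (ENSMUSG00000042118, chr13:93792228-93811228), which encodes a methyltransferase that makes methionine. Its relative values were 15.2, 11.5 and 12.3 in naive LBRKO cells and 4.75, 4.17 and 4.28 in EpiLCs, or 0.347 of the naive level (log2 -1.53 ± 0.13, adjusted p = 3.23e-12). Adgra3 (chr5:50116808-50216574), an adhesion receptor gene, went from 53.8, 38.2 and 51.1 to 16.9, 17.8 and 15.1 (log2 -1.50, adjusted p = 8.28e-15). Both also fell in WT, by 0.65 and 1.1. The IGG background of WT cells fell with stage over Adgra3 too, by 0.53 (adjusted p = 0.0149), and its part in the LAP2B fall was not tested. The other large falls were over Tmem64 (-1.49), the uncharacterised gene AA986860 (-1.40), the glutathione transferase gene Gstm3 (-1.39), the inhibitory Fc receptor gene Fcgr2b (-1.34), the axonemal co-chaperone gene Dnajb13 (-1.33) and the Ras-like GTPase gene Mras (-1.33).
Of these 8 falls, 7 also passed as falls in WT, the exception being Dnajb13. That gene went from 15.5, 14.6 and 16.4 to 5.30, 6.30 and 6.79 in LBRKO, against 3.51, 3.18 and 3.52 to 2.67, 3.44 and 4.16 in WT, and the stage changes differed by -1.32 (adjusted p = 2.9e-05). All 16 genes passed on the spike-in scale too, where the spread was pooled over genes, with adjusted p from 1.95e-06 (Adgra3) to 0.0107 (Trpc5os).

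**Figure D1:**
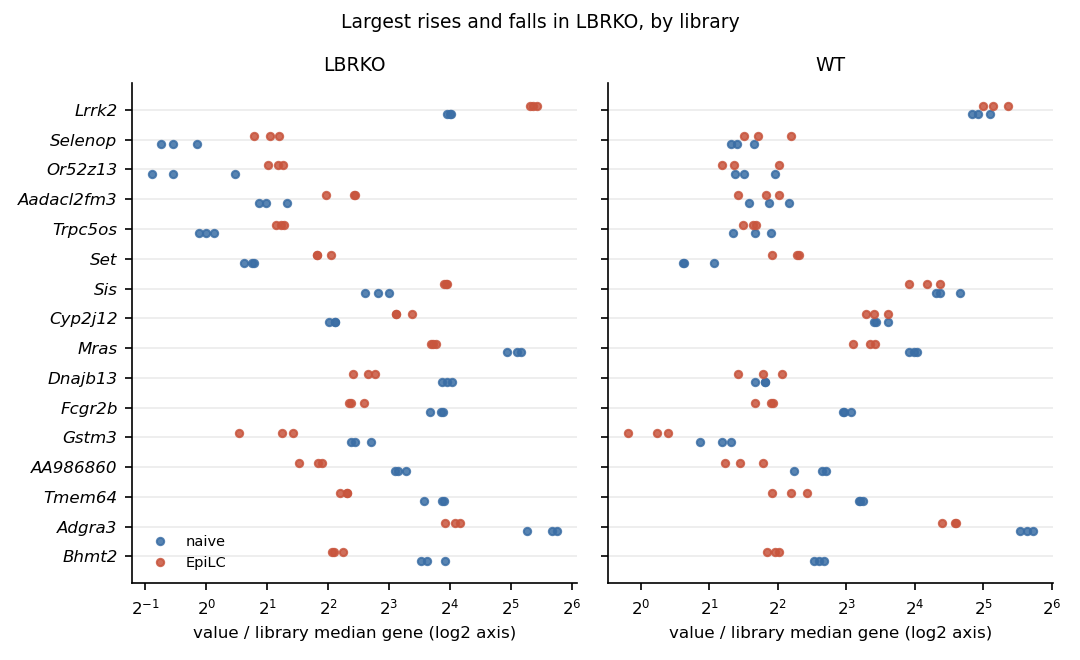
Relative LAP2B value (value divided by the library's median gene, log2 axis) of the 8 genes with the largest rise and the 8 with the largest fall in LBRKO, 1 point per library, naive in blue and EpiLC in red, LBRKO on the left and WT on the right. For Lrrk2 the 3 naive LBRKO points lie at 15.4 to 16.2 and all other points at 28.5 to 42.9.

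Genes were also ranked by how far the stage change in LBRKO departed from that in WT. The highest were Aadacl2fm1 (1.62), Rbmyf8 (1.56), Smgc (1.56) and Pde3b (1.54). Pde3b (chr7:114013685-114138486), which encodes a cyclic nucleotide phosphodiesterase, went from 51.1, 33.7 and 40.6 to 67.4, 67.4 and 62.1 in LBRKO and from 53.9, 70.5 and 52.6 to 37.7, 31.2 and 27.7 in WT. It rose by 0.67 in LBRKO and fell by 0.87 in WT (adjusted p = 3.29e-08 for the difference). Rbmyf8 belongs to a multicopy family on the Y chromosome, at 0.344 to 2.04 in the 12 libraries, so its reads may be split among copies. The lowest were Adsl (-1.72), Anxa9 (-1.67), Cdc42ep1 (-1.61) and Rpn1 (-1.57). A large difference need not be a large change in LBRKO. Without 1 LBRKO library, the LBRKO change of Cdc42ep1 ran from -0.46 to -0.27 and never passed (limma adjusted p = 0.15 to 0.41). Those of Anxa9 (-0.67 to -0.44) and Rbmyf8 (0.57 to 1.11) did not pass in every such fit (adjusted p up to 0.081 and 0.17). Those of the other highest and lowest genes did. Adsl (chr15:80832518-80855148), whose product adenylosuccinate lyase acts in purine synthesis, went from 11.0, 9.52 and 11.7 to 5.22, 4.89 and 4.85 in LBRKO and from 2.71, 2.89 and 2.96 to 4.27, 5.08 and 4.11 in WT (adjusted p = 2.63e-08 for the difference). Rpn1, for a subunit of the enzyme that adds glycans in the endoplasmic reticulum, fell by 0.80 in LBRKO and rose by 0.77 in WT. In naive cells Adsl and Rpn1 had more LAP2B in every LBRKO library than in every WT library. Their EpiLC values in LBRKO (4.85 to 7.08 over both genes) were nearer to those of WT (3.18 to 5.79).

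The gap between the genotypes was also narrower along the genome, where both of them moved. The stage change of windows ran from -0.35 to 0.40 (5th to 95th percentile) in LBRKO, with 44.7% called. In WT it ran from -0.60 to 0.47, with 81.3% called. The narrowing is thus not a move of LBRKO alone, and the part of each genotype in it was not tested. Over 1313 windows of 2 Mb, the median absolute difference between LBRKO and WT was 0.52 log2 units in naive cells and 0.25 in EpiLCs, and it was smaller in EpiLCs in 1098 windows. These are values without a test, and windows that lie side by side are not separate observations. The 8 largest rises and 8 largest falls, which the choice of genes favours, had medians of 1.47 and 0.93 in naive cells and 0.32 and 0.45 in EpiLCs.

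Genes called in both genotypes did not all move one way. Of the 5536 genes higher in LBRKO EpiLCs, 1323 (23.9%, or 12.4% of those higher in WT) were also higher in WT and 1042 (18.8%) were lower in WT, where 15.1% of all genes tested were higher and 17% lower. Of the 7064 genes lower in LBRKO EpiLCs, 2837 (40.2%, or 23.7% of those lower in WT) were also lower in WT and 605 (8.56%) were higher. Of the genes that changed in WT, 81.9% of those higher and 67.6% of those lower were not called in LBRKO, against 82.1% of all genes tested. Across 26570 genes of at least 10 kb, the stage change in LBRKO had a Spearman's rho of 0.16 with that in WT. Genes that overlap or lie side by side share reads, so these are descriptions.

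LMNB1, mapped in WT cells alone, shows where lamin B1 lies at each stage. Its stage change was called for 13.4% of genes, and that of the IGG background for 0.487%. Across the genes of at least 10 kb, the LAP2B stage change in LBRKO had a rho of 0.27 with the LMNB1 stage change, 0.087 with the IGG stage change and -0.039 with the LMNB1 level. In WT the same 3 values were 0.89, 0.69 and -0.73. When all genes tested were ranked by LMNB1 level and divided in 4 classes of equal size, the median stage change from the class with least LMNB1 to that with most was 0.08, -0.03, -0.02 and 0.03 in LBRKO, against 0.36, 0.13, -0.21 and -0.46 in WT. The WT medians ran downwards with LMNB1 and the LBRKO medians had no order. In the class with most LMNB1, naive LBRKO replicates 1 and 2 stood 0.09 above and 0.09 below the naive mean.
Ranked instead by the LMNB1 stage change, the LBRKO medians were -0.15, 0.03, 0.04 and 0.13 from the class that lost most LMNB1 to the class that gained most, against -0.49, -0.24, 0.09 and 0.47 in WT. In the class that lost most, 18.9% of genes were lower and 2.78% higher in LBRKO EpiLCs, against 10% and 7.87% over all genes. In the class that gained most, 10.6% were higher and 3.69% lower. Gene composition moved with these values, and its part was not tested: from the class of genes with least GC to that with most, again of 4, medians were 0.14, 0.01, -0.05 and -0.03 in LBRKO and -0.37, -0.17, 0.06 and 0.37 in WT.

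**Figure D2:**
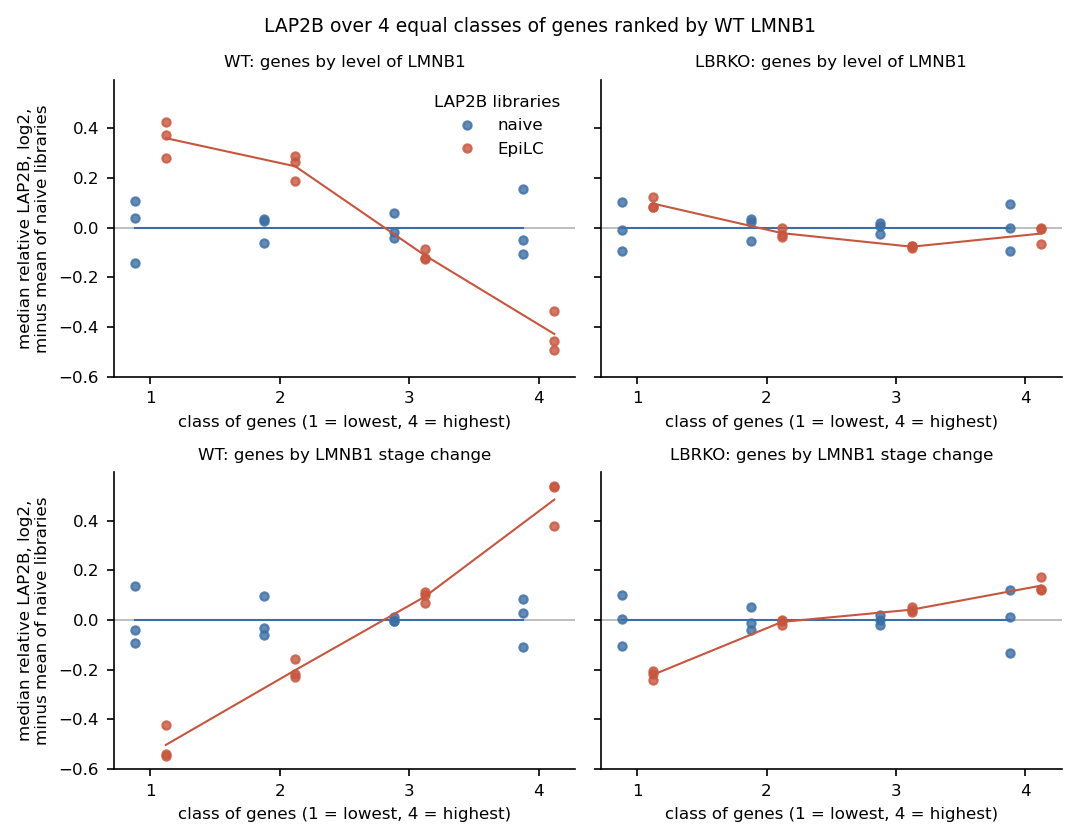
Median relative LAP2B (log2, minus the mean of the 3 naive libraries) in 4 equal classes of genes ranked by WT LMNB1 level (top) or by its stage change (bottom), WT on the left and LBRKO on the right, 1 point per library, with lines through group means. WT EpiLC points fall steeply from class 1 to class 4 of LMNB1 level, and LBRKO EpiLC points stay near 0.

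Windows of 2 Mb with at least 10 genes tested give a view in which neighbouring genes count once. Of 1313 windows, 314 (23.9%) were higher and 273 (20.8%) lower in LBRKO EpiLCs by limma, 44.7% in all. Dividing libraries by their mean gave 428 higher and 241 lower. In WT 81.3% of windows were called, 275 higher and 793 lower, or 435 and 508 with division by the mean. The stage change differed between the genotypes in 71.6%, 678 higher in LBRKO and 262 lower, or 504 and 366 with division by the mean. Of the 314 windows higher in LBRKO, 168 (53.5%) were lower in WT (with division by the mean, 139 of 428). Of the 273 windows lower in LBRKO, 171 (62.6%) were also lower in WT. Of all windows 60.4% were lower in WT, so 62.6% lies near the share of all windows and 53.5% lies below it.

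The window with the largest rise, chr15:2-4 Mb, holds the growth hormone receptor gene Ghr, Ccdc152 and Selenop. Its mean relative level was 0.665, 0.754 and 0.642 in naive LBRKO libraries and 1.29, 1.34 and 1.27 in EpiLC libraries (log2 change 0.92 ± 0.10, adjusted p = 4.03e-07), without overlap. WT libraries held 1.54 to 1.74 and 1.79 to 2.02, so both LBRKO stages lay below WT. The next were chr18:54-56 Mb with Zfp608 and Csnk1g3 (0.73), chr15:90-92 Mb with Lrrk2, Slc2a13, Kif21a and Muc19 (0.72), chr16:70-72 Mb with the glycogen branching enzyme gene Gbe1 (0.70), and chr1:2-4 Mb with Xkr4 (0.68). The stage change of all 5 was higher in LBRKO than in WT (adjusted p at most 0.000157), under division by the mean as well (at most 0.00277).
The largest falls were in chr9:116-118 Mb with the RNA-binding protein gene Rbms3 (-0.64), chr1:130-132 Mb with Srgap2 (-0.58), chr5:48-50 Mb with the axon guidance gene Slit2 and the channel subunit gene Kcnip4 (-0.56), chr5:2-4 Mb with the cell cycle kinase gene Cdk6 (-0.55), and chr6:134-136 Mb with the glutamate receptor gene Grin2b and Etv6 (-0.53). In WT the windows of Rbms3, Srgap2, Slit2 and Grin2b fell too, with -0.38, -0.18, -0.74 and -0.32 (adjusted p at most 0.00107). For Slit2 the stage changes were not called different (adjusted p = 0.293). The window of Cdk6 gave 0.01 in WT (adjusted p = 5.6e-05 for the difference). At chr6:134-136 Mb the relative level was 7.65, 6.56 and 7.12 in naive LBRKO cells and 5.01, 4.89 and 4.81 in EpiLCs. WT lay lower at both stages, at 3.25, 3.35 and 3.05 in naive cells and 2.67, 2.58 and 2.50 in EpiLCs.
Of the 587 called windows, 219 had no neighbour called in the same direction. The longest unbroken runs held 8 windows each, of which higher ones spanned chr1:40-56 Mb (mean log2 change 0.33 in LBRKO, -0.18 in WT) and chr13:46-62 Mb (0.29 and 0.41), and lower ones chr5:136-152 Mb (-0.28 and 0.01). By chromosome the median gene changed between -0.11 on Y and 0.12 on chromosome 19, with 0.02 on chromosome 6 and 0.00 on chromosome 8.

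**Figure D3:**
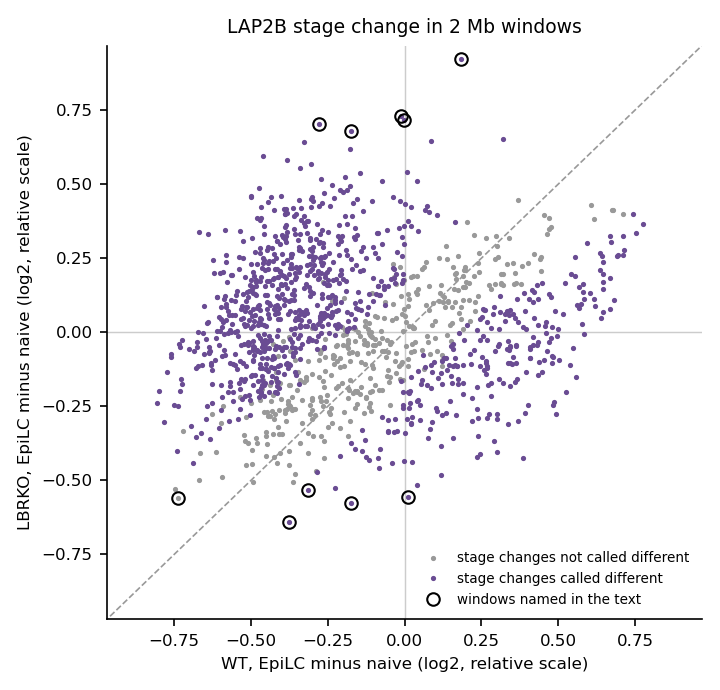
Stage change of LAP2B in WT (horizontal) and LBRKO (vertical) in 1313 windows of 2 Mb, both as log2 of the relative scale, with the line of equal change dashed, windows whose stage changes differ in purple, and the 10 named windows circled. Most purple points lie at negative WT and near-zero or positive LBRKO values, and the window of Selenop is at the top at 0.92.

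Among the developmental lists, which were chosen with earlier results of these data known, the naive pluripotency genes that passed in LBRKO were all lower. Of 22 tested, 9 were lower and none higher (40.9% lower, against 10% of all genes and 17.2% of protein-coding genes), with a median of -0.34 against 0.02 for all genes. None was higher by edgeR or at an unadjusted p under 0.05 either. On the spike-in scale none of the 22 passed in either direction. In WT 6 were higher and 3 lower, against 15.1% and 17% of all genes. Of 20852 protein-coding genes 5818 were higher and 4582 lower in WT, so the 6 of 22 lies near the protein-coding share. The stage change was lower in LBRKO than in WT for 7 and higher for none, against 9.55% and 10.2% of all genes, and 4123 and 2695 of the 20852 protein-coding genes. The 13 that did not pass ran up to 0.60 (Sox2). The 9 were the LIF receptor subunit genes Lifr (-0.68) and Il6st (-0.55), the nuclear receptor gene Nr5a2 (-0.67), Klf5 (-0.80), Prdm14 (-0.73), Tfcp2l1 (-0.52), Tbx3 (-0.53), Fgf4 (-0.70) and Tcl1 (-0.81).
Lifr went from 36.2, 31.6 and 37.3 to 21.3, 22.0 and 21.9, without overlap, and also fell in WT (-0.81, adjusted p = 0.54 for the difference). Over Lifr the WT IGG background fell as well, by 0.43 (adjusted p = 0.0365), and its part was not tested. Nr5a2 went from 53.9, 47.3 and 53.5 to 32.3, 33.5 and 31.6, and also fell in WT (-0.69). Prdm14, a factor that keeps the naive state, gave 0.03 in WT (adjusted p = 0.0084 for the difference), and Tfcp2l1, a LIF target, gave 0.05 (adjusted p = 0.0059). Nanog gave -0.41 in LBRKO (adjusted p = 0.0507).
Of 23 primed epiblast genes, 2 rose (8.70%) and 5 fell (21.7%), near the 10.2% and 17.2% of protein-coding genes. Fgf5, the ligand gene commonly used to mark EpiLCs, went from 3.31, 3.03 and 4.30 to 6.79, 6.12 and 6.34 in LBRKO (log2 0.85, adjusted p = 2.92e-05) and stayed between 5.24 and 6.43 in all WT libraries, so its stage change differed (adjusted p = 0.00443). Grhl2, an epithelial factor, rose in both (0.41 and 0.58). The de novo DNA methyltransferase gene Dnmt3b fell by 0.67 and Sall3 by 0.77, where WT gave 0.09 and -0.06, and Zic5, Utf1 and Tcf15 also fell. Otx2, a primed state regulator, gave 0.00 with overlapping libraries.

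The neural genes that passed in LBRKO were all higher. Of 25 genes tested, 10 (40.0%, against 7.87% of all genes and 10.2% of protein-coding genes) were higher in LBRKO EpiLCs and none lower (none by edgeR, 2 at an unadjusted p under 0.05), with a median of 0.22. On the spike-in scale 1 was higher and none lower. In WT 4 were higher and 18 lower, against 15.1% and 17% of all genes, and 5818 and 4582 of 20852 protein-coding genes. The stage change was higher in LBRKO than in WT for 17 and lower for 1, against 10.2% and 9.55% of all genes, and 2695 and 4123 of the 20852 protein-coding genes. Map2, a dendrite microtubule protein gene, went from 38.8, 29.9 and 31.7 to 61.8, 60.8 and 55.7 in LBRKO (log2 0.83) and from 78.1, 95.7 and 72.3 to 71.2, 62.7 and 59.6 in WT (-0.34, adjusted p = 1.46e-07 for the difference). Dlg2, a synaptic scaffold gene of nearly 2 Mb, rose by 0.57 in LBRKO and fell by 0.57 in WT. Dcx, Ctnna2, Cntnap2, Csmd3 and Kcnd2 rose by 0.29 to 0.64, and Sox1 and Tubb3 by 0.60 and 0.47. Over Map2 and Dlg2 the naive LBRKO libraries lay lowest and the naive WT libraries highest. Of the 25 genes, 18 were in the class with most LMNB1. In that whole class 39.3% of genes were lower in WT and 23.2% had a higher stage change in LBRKO than in WT.
Among 21 primitive endoderm genes, 3 rose (14.3%) and 6 fell (28.6%), against 10.2% and 17.2% of protein-coding genes. The basement membrane genes went both ways, with Col4a1 up by 0.53 and Lama1 and Nid2 down by 0.68 and 0.63, and the endocytic adaptor gene Dab2 rose by 0.42 but fell by 0.29 in WT. Gata6, an early factor of this lineage, gave -0.28 (adjusted p = 0.155). Among 21 mesoderm and gastrulation genes, Wnt8a rose (0.78) and Kdr, Mixl1 and Eomes fell (14.3%). Mixl1, a homeobox gene of the primitive streak, went from 2.63, 2.56 and 2.3 to 1.15, 1.38 and 1.31 in LBRKO, and from 0.889, 0.818 and 0.942 to 1.20, 1.48 and 1.21 in WT (difference -1.42, adjusted p = 0.000346). Wnt5a gave 0.10 with overlapping libraries.

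Genes of the silencing machinery and of the nuclear envelope were mixed. Among all protein-coding genes 10.2% rose and 17.2% fell. Of 20 genes for H3K9 methylation and its readers, 6 fell (30%) and 1 rose, namely Dnmt1, the maintenance DNA methyltransferase gene (0.38). The falls included Morc3 (-0.62), Mphosph8, which encodes a HUSH subunit (-0.64), the SETDB1 partner gene Atf7ip (-0.52), and the demethylase genes Kdm4a (-0.37) and Kdm4c (-0.40). In WT Atf7ip (-0.30) and Kdm4c (-0.99) fell too, Kdm4a rose (0.63), and Morc3 and Mphosph8 were not called. Of 20 genes for germline function and TE silencing, 7 rose (35.0%, against 7.87% of all genes) and 2 fell, and 4 rose without naive replicate 3, EpiLC replicate 1 or EpiLC replicate 3. The falls became 1 without naive replicate 1, naive replicate 3, EpiLC replicate 1 or EpiLC replicate 2. The testis gene Stk31 rose by 0.76 and the piRNA pathway gene Tdrd9 by 0.40, with Mov10l1, Tdrd1, Tdrkh, Sycp1 and Slc25a31, and the RNA sensor gene Rigi (-0.54) and Dnmt3l (-0.41) fell. In WT Tdrd9, Tdrd1 and Slc25a31 rose too, Rigi fell too (-0.62), and the others of these genes were not called. Of 23 nuclear envelope genes, 8 fell (34.8%) and 2 rose (3 without naive replicate 2 and 1 without any other of the 6 libraries). Tor1aip2 (-0.87) and Tor1aip1 (-0.61), for the torsin partners, and Sun1 (-0.66), for a LINC complex protein, fell, as did Lemd3, Syne2 and Tmem43. In WT Tor1aip2 (-0.37), Tor1aip1 (-0.54) and Lemd3 (-0.32) fell too, Tmem43 rose (0.83), and Sun1 and Syne2 were not called. Syne1, for the large KASH protein nesprin-1, rose by 0.34 and Lemd2 by 0.65, the latter with overlapping libraries (1.12, 2.84 and 1.98 against 3.18, 2.74 and 3.00). Of 15 housekeeping genes, Eef2 (0.82), Hsp90ab1 (0.74) and Rps18 (0.61) rose (20.0%) and Gusb fell (-0.97). In WT 10 rose and 2 fell, against 15.1% and 17% of all genes, and 5818 and 4582 of 20852 protein-coding genes. On the spike-in scale 1 germline gene was higher, and 1 nuclear envelope gene and 1 housekeeping gene were lower. No gene of the H3K9 list passed there.

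**Figure D4:**
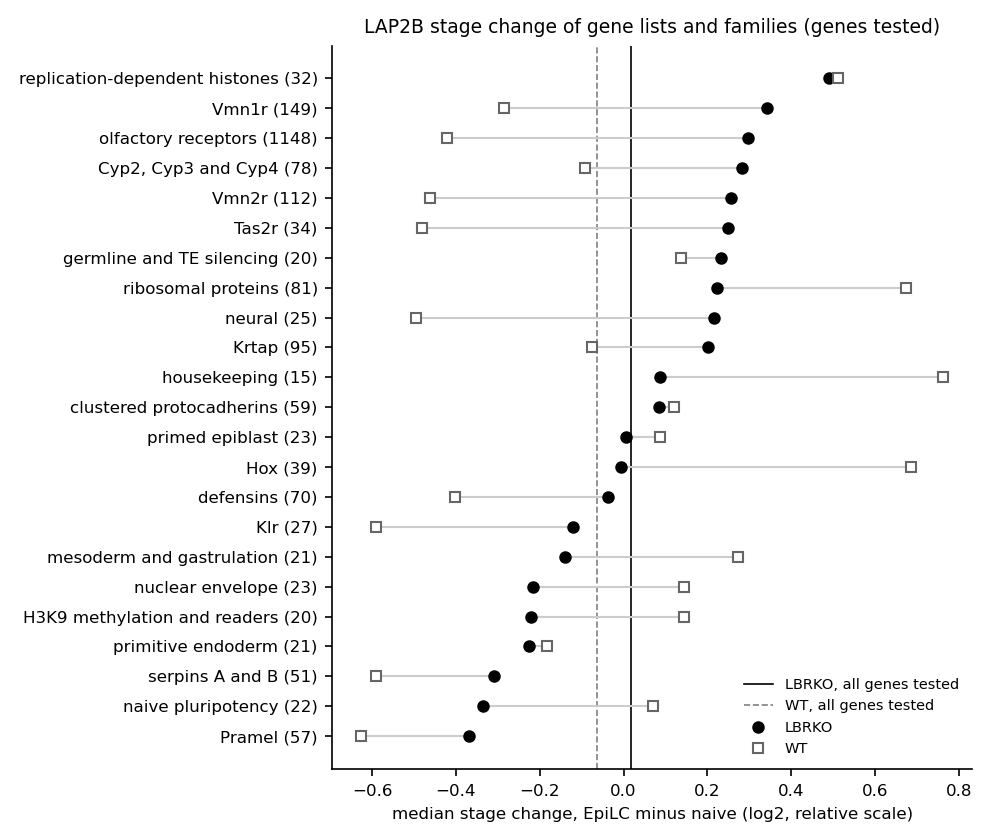
Median stage change (EpiLC minus naive, log2 of the relative scale) of each gene list or family, with the number of genes tested in brackets, filled circles for LBRKO, open squares for WT, and vertical lines for the median of all genes tested. Olfactory, vomeronasal and neural genes lie right of the line in LBRKO and left of it in WT, and Hox, ribosomal and housekeeping genes are further right in WT.

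Several large clustered families had LBRKO and WT medians of opposite sign. Members lie side by side and share sequence, so their reads may be split and they are not separate observations. Of 1148 olfactory receptor genes tested, 148 (12.9%) were higher and 12 lower in LBRKO EpiLCs, against 7.87% and 10% of all genes, with a median of 0.30, while in WT 8 were higher and 279 lower, with a median of -0.42. Of all genes 15.1% were higher and 17% lower in WT. The stage change was higher in LBRKO than in WT for 312 of the olfactory receptor genes and lower for 3, against 10.2% and 9.55% of all genes. Of the 1148, 858 were in the class with most LMNB1. In that whole class 23.2% of genes had a higher stage change in LBRKO than in WT, and 39.3% were lower in WT. The olfactory receptor count of 312 lay near the first share and that of 279 below the second. Vomeronasal receptor genes were also mostly higher where called, with 28 of 149 Vmn1r genes (18.8%) higher and 1 lower (median 0.34) and 26 of 112 Vmn2r genes (23.2%) higher and 1 lower (median 0.26). In WT no Vmn2r gene was higher and 69 were lower, against 15.1% and 17% of all genes, and 74 had a higher stage change in LBRKO, against 10.2%. Of the Vmn2r genes 96 were in the class with most LMNB1, and both counts lay above the shares of that class. With division by the mean, 122 olfactory receptor, 6 Vmn1r and 32 Vmn2r genes were lower in WT, against 5840 of all 70382 genes. The stage change was then higher in LBRKO for 211 olfactory receptor and 49 Vmn2r genes, against 4768 of all genes. Of 78 Cyp2, Cyp3 and Cyp4 genes, 18 (23.1%) rose and 2 fell. Those falls became 0 without naive replicate 1 or EpiLC replicate 2, 3 without naive replicate 2 and 1 without any other of the 6 libraries. Of 59 clustered protocadherin genes 15 (25.4%) rose and none fell, and in WT 18 rose and none fell. Their medians had the same sign, 0.09 in LBRKO and 0.12 in WT. The count of 12 lower olfactory receptor genes ran from 5 (without naive replicate 1) to 15 without 1 of the 6 LBRKO libraries, being 8 without naive replicate 3 or EpiLC replicate 2. In the same fits the higher counts were 74 to 136 for olfactory receptors (92 or fewer without any library but naive replicate 1), 17 to 27 for Vmn1r (17 without naive replicate 2, naive replicate 3 or EpiLC replicate 3) and 10 to 32 for Vmn2r (10 without naive replicate 3, and 14 to 16 without naive replicate 2, EpiLC replicate 1 or EpiLC replicate 2).
In a pair of other families the called genes were nearly all lower in both genotypes, though most members did not pass in LBRKO. Of 57 Pramel genes, of a family expressed in germ cells and early embryos, 18 (31.6%, against 10% of all genes) were lower and 1 higher in LBRKO, and 29 were lower in WT, where 17% of all genes were. Of 51 genes for serpins A and B, 12 (23.5%) were lower in LBRKO and 33 in WT. No Klr gene, for natural killer cell receptors, of 27 tested and no defensin gene of 70 tested passed in LBRKO by limma (at an unadjusted p under 0.05, 3 Klr genes were lower and 4 defensin genes higher and 3 lower, and edgeR called 1 lower Klr gene and 1 higher defensin gene), while 21 Klr genes and 10 defensin genes were lower in WT. With division by the mean, 9 Klr, 6 defensin, 18 serpin and 24 Pramel genes were lower in WT. In LBRKO that division gave 1 higher defensin gene. Of 39 Hox genes 2 (5.13%) rose and 3 (7.69%) fell in LBRKO (3 and 2 with division by the mean), below the 7.87% and 10% of all genes, and 26 rose in WT, where 15.1% of all genes did. Of 81 ribosomal protein genes 11 (13.6%) rose and 3 fell (42 rose in WT). Of 32 replication-dependent histone genes tested, 8 (25.0%) rose and 1 fell in LBRKO (median 0.49), and 12 rose in WT. 1 Tas2r gene of 34 and 3 Krtap genes of 95 rose. On the spike-in scale 24 olfactory receptor genes were higher and 2 lower, and 9 Pramel genes were lower. Of all genes 0.854% were higher and 1.2% lower on that scale. There 4 Vmn1r, 2 Vmn2r and 5 Cyp genes were higher and 4 serpin genes lower. No clustered protocadherin, Hox, Klr or defensin gene was called.

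TE families were compared by the mean over their copies, relative to the library's median family. Of 1225 family names, 182 (14.9%) were higher and 136 (11.1%) lower in LBRKO EpiLCs, 26.0% in all, against 27.2% in WT, and the stage change differed in 26.6%. On the spike-in scale limma called 0.0% (none), with 14 families at an unadjusted p under 0.05, against 0.163% in WT and 0.0816% (1 family) for the difference. The counts depend on the reference: divided by the library's mean family, 9 were higher and 856 lower, and 1 difference between the genotypes was called. The median over copies gave 5 calls. A pair of satellite families, named after their values were seen, holds much of that mean. The major satellite GSAT_MM made up 25.1%, 38.6% and 32.8% of the summed family means in naive LBRKO libraries and 40.1%, 39.9% and 42.5% in EpiLC libraries, and rose relative to the median family by 0.64 in LBRKO (adjusted p = 0.0329) and 0.82 in WT. SYNREP_MM made up 4.68% to 7.10% and 7.03% to 7.37%.

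Relative to the median family, young L1 elements and SINEs moved in opposite directions. L1 are autonomous retrotransposons, and SINEs are short elements copied by the L1 machinery. All 7 L1MdA, all 3 L1MdTf, both L1MdGf and all 7 L1MdF families rose in LBRKO, with medians of 0.15, 0.27, 0.18 and 0.17, and 15 of 21 Lx families rose (2 without naive replicate 3, 4 to 9 without any other library but naive replicate 1, and 18 without that). By the median over copies none of these families passed, and the medians of the 4 L1Md groups were 0.06, 0.04, 0.05 and 0.11. In WT the L1MdA median was -0.07, no family of these groups rose, and 18 of 21 Lx families fell. Of the 34 SINE families 25 fell in LBRKO (median -0.12), including 9 of 10 B1, 4 of 5 B2 and all 7 B4 and ID families, while 32 rose in WT. Of all families 14.9% rose and 11.1% fell in LBRKO, and 14.2% rose and 13% fell in WT. Without naive replicate 3 the SINE count was 12 and that of B4 and ID 4. The B2 count was 0 without naive replicate 3, EpiLC replicate 1 or EpiLC replicate 2, and 2 without naive replicate 1 or EpiLC replicate 3. By the median over copies no SINE family passed (median -0.11). Divided by the mean family, no LINE family rose in LBRKO (L1MdA median -0.10), all 34 SINE families fell, and 24 fell in WT. Under that scaling the L1MdA median was still above the SINE median of -0.35, and in WT it was below (-0.40 against -0.19).
L1MdA_I, a young subfamily with 4674 copies, had 2.59, 2.71 and 2.41 in naive LBRKO libraries and 3.10, 3.07 and 3.06 in EpiLC libraries (log2 0.25 ± 0.06, adjusted p = 0.00789), without overlap. WT libraries held 3.62 to 4.05 and 3.56 to 4.20, and the difference between stage changes was 0.22 (adjusted p = 0.0736). Its change became -0.01 with division by the mean.

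Among families of at least 100 copies the largest rises were Tigger17d (0.68) and FordPrefect (0.51), both DNA transposons, then L1MdTf_III (0.31), ETnERV3-int (0.28) and L1MdTf_I (0.27). Tigger17d and FordPrefect also rose in WT (0.61 and 0.52). Over them the WT IGG background gave 0.83 and -0.71, neither of which passed by limma (adjusted p = 0.332 and 0.486). Its part in their LAP2B rises was not tested. The largest falls were RLTR13B2 (-0.71) and RLTR13B1 (-0.59), LTRs of the ERVK class, then RLTR9D (-0.37), MLTR32C_MM (-0.36), LTR73 (-0.35) and UCON2 (-0.33). RLTR13B2, with 312 copies, went from 2.35, 2.31 and 2.46 to 1.42, 1.37 and 1.43 in LBRKO (adjusted p = 7.11e-06) and fell by 0.58 in WT. RLTR13B2 and RLTR13B1 were also the 2 of 1225 families called for the WT IGG background, which fell by 0.40 and 0.30 (adjusted p = 0.0211 each), and its part in their LAP2B falls was not tested. Of 23 RLTR13 families 10 fell and 2 rose in LBRKO, and 14 fell in WT. The 2 rises became 0 without naive replicate 2, EpiLC replicate 1 or EpiLC replicate 3 and with division by the mean, and 1 without naive replicate 3 or EpiLC replicate 2. The falls were 6 without naive replicate 1 or naive replicate 3, 19 with division by the mean and 2 by the median over copies. All 6 of the largest falls also passed with division by the mean, and of the rises Tigger17d and FordPrefect did. That division moved the median family to -0.23, which favours falls, so their passing is no sign of stability. By the median over copies, the falls of RLTR13B2 and RLTR13B1 and the rise of ETnERV3-int still passed (adjusted p = 0.00309, 0.0491 and 0.0491), the others did not, Tigger17d came to -0.0002 and UCON2 turned to 0.14. IAP elements had 4 of 25 families higher, near the 14.9% of all families, and none lower, and of the 8 MERVL and MT2 families 3 were lower, against 11.1% of all families. With division by the mean the IAP count turned to 6 lower and none higher.
Of the 25 ETn, MusD and ERVB families, which include ETnERV3-int, 8 were higher and 3 lower, from -0.23 to 0.28 with a median of 0.08. The medians of the remaining groups were 0.03 for 60 older L1M families, -0.03 for 27 L2, CR1 and MIR families, -0.02 for 29 ORR1 and MT families, -0.06 for 8 satellite families and -0.01 for 293 DNA transposon families, each below 0 with division by the mean. Families within these groups ranged widely, those of DNA transposons from -0.33 to 0.68 with 29 higher and 27 lower.

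**Figure D5:**
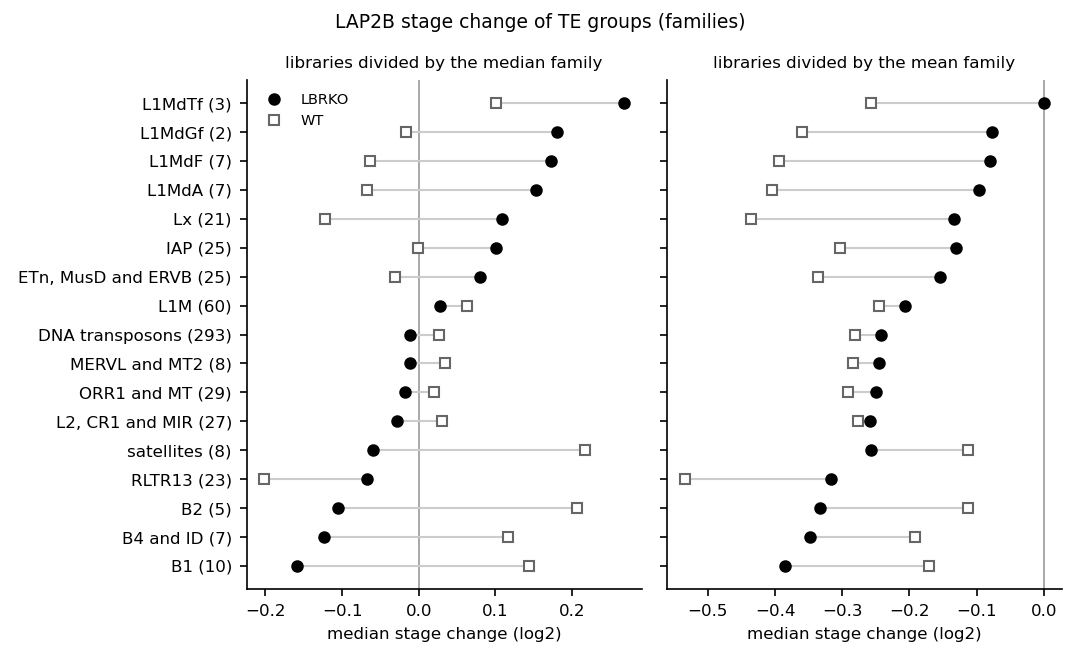
Median LAP2B stage change (EpiLC minus naive, log2) of TE groups, number of families in brackets, filled circles for LBRKO and open squares for WT, with libraries divided by the median family (left) or by the mean family (right). On the left the L1Md groups are above 0 and B1, B2 and B4 below 0 in LBRKO, and on the right nearly all groups are below 0 with the L1Md groups still highest in LBRKO.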

How the data were processed

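LAP2B CUT&RUN was run on naive and EpiLC cells of 4 genotypes with a yeast DNA spike-in, and LMNB1 and IGG on WT cells. The authors aligned read pairs with Bowtie2 2.3.5.1 to GRCm39, processed them with SAMtools 1.10, and made coverage with deepTools as RPKM times a spike-in factor, leaving out blacklisted regions for genes and keeping them for TEs. The deposited values are this signal summed over the 1 kb bins a gene touches and not divided by length, since the values were equal in 343 of 343 sets of genes that share 1 bin. The methods name wider bins for TEs. Dividing by the smallest step of each library gave whole reads (tolerance 0.05) for 100% of gene values. Coordinates came from GENCODE M39, which matched 78131 of 78202 genes (99.9%), and base composition from GRCm39.

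The lowest 0.1 of genes by mean value was left out, which kept 70382. A pseudocount of 0.1 of the median was added before log2, which understates changes of low genes. Tests were limma 3.58.1 (trend) in R 4.3.3, two-sided, with all 24 LAP2B libraries in 1 model of 8 group means and Benjamini-Hochberg adjustment over all genes, windows or families. The 8 groups were WT, LBRKO, TKO and QKO cells, each at both stages. Library measures used exact permutation tests (scipy 1.17.1). On simulated data with the same 70382 genes, 11% of 100 genes changed by 0.5 log2 and 53% of 100 changed by 1 were called for the LBRKO stage change, with 2 false calls. The simulated noise was separate for each gene and few genes changed, unlike these data. The recovery and false calls there are therefore not those of the tests reported. Alternatives were edgeR 4.0.16 on recovered reads, other filters, pseudocounts, scalings, averages and window widths, a replicate block, and fits without each library. Replicate numbers did not pair the samples: the deviations of same-numbered naive and EpiLC libraries correlated by 0.12, -0.12 and 0.03 in LBRKO.

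Named genes are the 8 largest rises and 8 largest falls among protein-coding genes of at least 10 kb called without overlap, 1 per 2 Mb window, the 4 highest and 4 lowest differences from WT by the same rule, up to 2 rising and 2 falling members of each gene list by adjusted p, and genes of the lamina and of lineages fixed by name. TE families of at least 100 copies gave 6 of each direction, and windows 5. Other members of the lists are given as values. The members and lists were chosen with earlier results of these data known. The 2 H3K9me3 samples were not analysed here, and the scores the authors deposited for TE copies in naive WT cells were not used.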

Additional observations from a re-analysis of the deposited data

Results flagged for a closer look

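The change from naive cells to EpiLCs differed between LBRKO and WT, by limma's test of the difference, for the following genes, TE families and windows. Each value is the log2 stage change in LBRKO minus that in WT on the relative scale, with 3 libraries per group. The named genes with a large difference were picked for it, so their sizes are descriptions. On the spike-in scale all 49 genes given here had a difference of the same sign and 10 passed (Adsl, Anxa9, Cdc42ep1, Dnajb13, Mixl1, Pde3b, Rpn1, Sis, Smgc and Tmem43), and none of the 3 TE families did.

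Among the largest rises in LBRKO, the difference was 1.16 for Lrrk2, 1.02 for Selenop, 1.44 for Or52z13, 1.30 for Aadacl2fm3, 1.17 for Trpc5os, 1.41 for Sis and 1.15 for Cyp2j12. Among the largest falls it was -0.88 for Bhmt2, -1.32 for Dnajb13 and -0.65 for Mras. At the upper end stood Aadacl2fm1 (1.62), Rbmyf8 (1.56), Smgc (1.56) and Pde3b (1.54). At the lower end stood Adsl (-1.72), Anxa9 (-1.67), Cdc42ep1 (-1.61) and Rpn1 (-1.57).

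Of 190 genes in the lists, 67 differed, 28 higher in LBRKO and 39 lower. Over all 70382 genes tested 7182 were higher and 6720 lower (19.8%), and of 20852 protein-coding genes 2695 and 4123. The 67 of 190 lies above the share of all genes but near that of protein-coding genes. A part of the 67 is given here, namely genes named in the report. The difference was positive for Fgf5 (0.82), Dab2 (0.71), Map2 (1.17), Dlg2 (1.13), Stk31 (0.55), Syne1 (0.62), Dcx (0.91), Ctnna2 (0.70), Cntnap2 (0.74), Csmd3 (0.90), Kcnd2 (0.77) and Kdm4c (0.60). It was negative for Dnmt3b (-0.76), Sall3 (-0.71), Mixl1 (-1.42), Dnmt3l (-0.67), Morc3 (-0.77), Tor1aip2 (-0.50), Sun1 (-0.66), Gusb (-0.67), Prdm14 (-0.76), Tfcp2l1 (-0.57), Klf5 (-0.73), Tbx3 (-0.90), Fgf4 (-0.58), Il6st (-0.64), Zic5 (-0.76), Mphosph8 (-0.91), Kdm4a (-0.99), Tmem43 (-1.38) and Tm7sf2 (-1.14). Of the named TE families 3 differed, L1MdTf_III by 0.21, LTR73 by -0.27 and UCON2 by -0.20. The difference was called for 326 of all 1225 families (26.6%). With division by the mean family, no family of at least 100 copies was called for it, so these 3 did not pass there.

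Of the 10 named windows, 9 differed. The difference was 0.74 at chr15:2-4 Mb, 0.74 at chr18:54-56 Mb, 0.72 at chr15:90-92 Mb, 0.98 at chr16:70-72 Mb and 0.86 at chr1:2-4 Mb. It was -0.27 at chr9:116-118 Mb, -0.40 at chr1:130-132 Mb, -0.57 at chr5:2-4 Mb and -0.22 at chr6:134-136 Mb. All 9 also passed when libraries were divided by their mean.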

How the results depend on the processing

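The library level of LBRKO, with a stage difference of -0.034, turned to 0.026 by the median over genes and to 0.29 by the mean over TE families (exact p = 0.1), and ran from -0.13 to 0.078 without 1 library, above 0 without naive replicate 3. The difference in rho with IGG turned to -0.044 against the WT profile of the same stage and ran from -0.024 to 0.056 without 1 library, below 0 without naive replicate 1. The lamina contrast ran from -0.23 to -0.053 and rho with LMNB1 from 0.016 to 0.090. With values not divided by bins the contrast was -0.020 (exact p = 0.9), and rho with LMNB1 and IGG differed by 0.027 and 0.025 (exact p = 0.1 each, the smallest possible). None of these passed a threshold.

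Counts on the spike-in scale were unstable. The 1446 genes became 257 with no filter on low values, 926 with genes of at least 10 kb, 2603 with a pseudocount 10 times larger, 6642 with only the 6 LBRKO libraries in the fit, 4264 with read numbers times the spike-in factor, and 321 to 874 without 1 library (fewer samples). The count of 0 TE families became 1 with the larger pseudocount, 11 with only the 6 libraries, and 0 to 1 without 1 library. On the relative scale, 12600 genes became 8554 to 12607 without 1 library and 13206 by edgeR. The 318 TE families became 5 by the median over copies, 865 with division by the mean, and 140 (without naive replicate 3) to 292 without 1 library, with 193 without EpiLC replicate 1. Differences between genotypes over TE families, 326, became 14 by the median over copies, 1 with division by the mean (chosen after seeing the data) and 230 to 339 without 1 library. The 587 windows became 997 of 1 Mb and 238 of 5 Mb, whose totals differ, and 449 to 581 without 1 library. Where no cause is given here, the cause was not tested.

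The replicate block gave 921 genes on the spike-in scale and moved no other count by over 1.5 times. It changed none of the 85 calls of named genes and families. Of those 85, 79 kept call and direction with division by the mean, where Lmna turned to 0.0057 and L1MdA_I to -0.013. Without 1 library, Lmna ran from -0.21 to 0.092, Otx2 from -0.075 to 0.069 and Wnt5a from -0.0064 to 0.18, and 26 values no longer passed while 477 kept call and direction. Depth, 61 to 104 reads for the median gene in LBRKO libraries, limits short genes most.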
